A study of Mus musculus with 9 samples.

Results

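Transcripts of 8 genes used as markers of projection identity in the developing neocortex were followed in glutamatergic cells of Tcf4 knockout (KO) and wildtype (WT) mouse embryos. The genes were Bcl11b, Fezf2, Tbr1, Tle4, Sox5, Foxp2, Ldb2 and Crym. They were chosen by name out of 17487 genes counted in any library, and every library listed all 8. The name transcription factor does not hold for each of them, since Tle4 encodes a Groucho-type corepressor, Ldb2 a cofactor that binds LIM-domain proteins, and Crym the thyroid hormone binding protein mu-crystallin.

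Neocortices were taken at E18.5 from embryos bred on the strain background Tcf4ex4WT/lacZ, and 5 libraries were labelled wildtype and 4 Tcf4 knockout. The KO embryos carried on both alleles, and in every cell, a lacZ and neomycin cassette placed before exon 4 of Tcf4, which removes the long protein TCF4B and leaves the shorter TCF4A, and the WT embryos were their littermates from heterozygous parents. A library held the cells of 1 sample on the Chromium 3′ v2 kit, which tags each captured transcript at its 3′ end with a unique molecular identifier (UMI). A level below is a gene's UMIs per 10000 of all UMIs of a cell, averaged over the cells of a library. WT2, WT3 and WT4 were compared with KO4 and KO5, and values of single libraries are given in that order, 3 for WT and then 2 for KO.

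In the cortical plate, excitatory neurons of the deep layers send axons out of the cortex, and neurons of the upper layers mostly connect cortical areas with each other. Fezf2 and its target Bcl11b (CTIP2) direct subcerebral neurons of layer V, whereas Tbr1, Sox5, Tle4 and Foxp2 mark or direct corticothalamic neurons of layer VI and the subplate, and Ldb2 and Crym are markers of layer V projection neurons. Bcl11b, Foxp2 and Tle4 are not exclusive to the cortex, since striatal and other GABAergic neurons also use them.

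Glutamatergic cells were those with at least 1 UMI of Neurod2 or Neurod6 and none of Gad1 or Gad2. Of 19680 cells kept in the 9 libraries, 14412 met this gate, and 11246 of them lay in the 5 compared libraries, 6064 of WT and 5182 of KO origin. WT2, WT3 and WT4 held 873, 1317 and 3874 such cells, and KO4 and KO5 held 3366 and 1816. Their median depth was 2501, 3610 and 4644 UMIs per cell in WT2, WT3 and WT4 but 2291 and 2219 in KO4 and KO5.

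Before the genes themselves, 4 libraries stood apart from the others in how cell types separated, KO4, KO5 and those labelled WT5 and WT1. In WT2, WT3 and WT4, cells with a Neurod2 UMI had 5.62, 10.8 and 5.70 times the odds of a Neurod6 UMI, against 1.29 in KO4, 1.34 in KO5, 1.18 in the library labelled WT5 and 1.44 in the small library labelled WT1. Summed over 5 GABAergic markers that the gate did not use, cells with a Gad UMI and no Neurod UMI held 7.96, 13.6 and 11 UMIs per 10000 in WT2, WT3 and WT4 but 2.41 and 1.34 in KO4 and KO5, where glutamatergic cells held 1.24 and 1.67. The 9 Gad cells of the library labelled WT1 held 0.849, below the 2.13 of its glutamatergic cells. In WT2, WT3 and WT4, 3 glutamatergic markers outside the gate and the 8 genes summed to 2.38, 3.36 and 2.24 in glutamatergic cells. Gad cells there held 0.0849, 0.662 and 0.285 of them. In KO4 and KO5 glutamatergic cells held 2.19 and 2.17 and Gad cells 2.29 and 3.02. The KO gate thus did not enrich these markers over Gad cells, and glutamatergic here names cells that met the gate. Both KO libraries also had more Actb, at 173 and 170 UMIs per 10000 against 51.9, 66.1 and 40.9 in WT2, WT3 and WT4, and more of the summed haemoglobin and other erythroid genes, at 31.9 and 72.2 against 6.86, 8.56 and 5.10. Depth, Actb, erythroid RNA and the weak separation of markers moved with genotype in these 5 libraries. Their part in the differences below was not tested, apart from the settings with even depth given beside them. Settings split by Actb are given as well, but they leave few cells in some libraries. Tcf4 itself, counted at a 3′ end that the cassette leaves in place, had levels of 13.2, 13.5 and 13.6 in the 3 compared WT libraries and lower ones, 9.39 and 7.53, in both KO libraries, but 7.24 in the library labelled WT5 and 19.0 in the library labelled KO1, and 5.23 in the library labelled WT1, all against their labels. KO5 had no Xist UMI in these cells, against 10.1 to 24.1 UMIs per 10000 elsewhere, so sex differed as well. Between any pair of libraries 0 to 46 cell barcodes were shared.

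**Figure D1:**
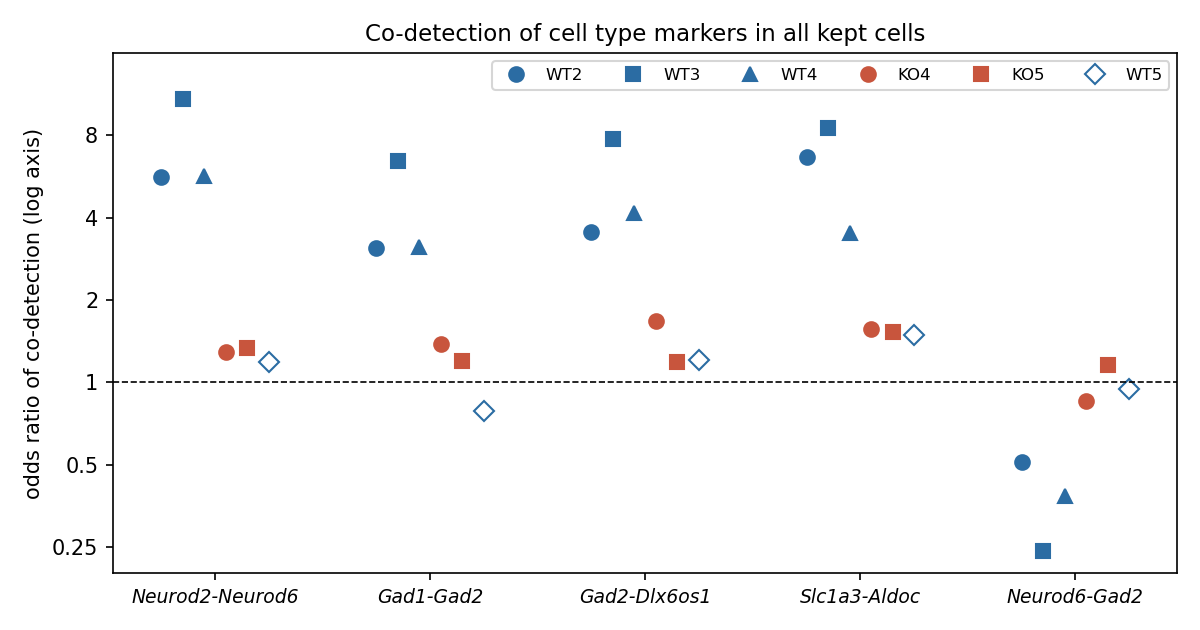
Odds ratio of co-detection for 5 pairs of cell type markers over all kept cells of a library (log axis, dashed line at 1). Points are WT2, WT3 and WT4 (blue), KO4 and KO5 (red) and the library labelled WT5 (open), and the last 3 sit between 0.78 and 1.68 for every pair, whereas Neurod2 and Neurod6 reach 5.62 or more in WT2, WT3 and WT4.

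The first question was whether loss of TCF4B changed the level of the 8 genes in glutamatergic cells. Tle4 rose in KO cells, from 0.397 ± 0.0501 (SD, n = 3) to 0.775 ± 0.0715 UMIs per 10000 (SD, n = 2), and was the only member to pass the test. Fezf2, Bcl11b, Ldb2 and Foxp2 were also above every WT library in both KO libraries without passing it, and Tbr1, Sox5 and Crym overlapped. Of 8459 genes tested with limma on log2(level + 0.1), 1.03% were called higher and 0.0946% lower at an adjusted p under 0.05. The median log2 difference was 0.47 over the 8 genes and -0.15 over all genes tested.

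**Figure D2:**
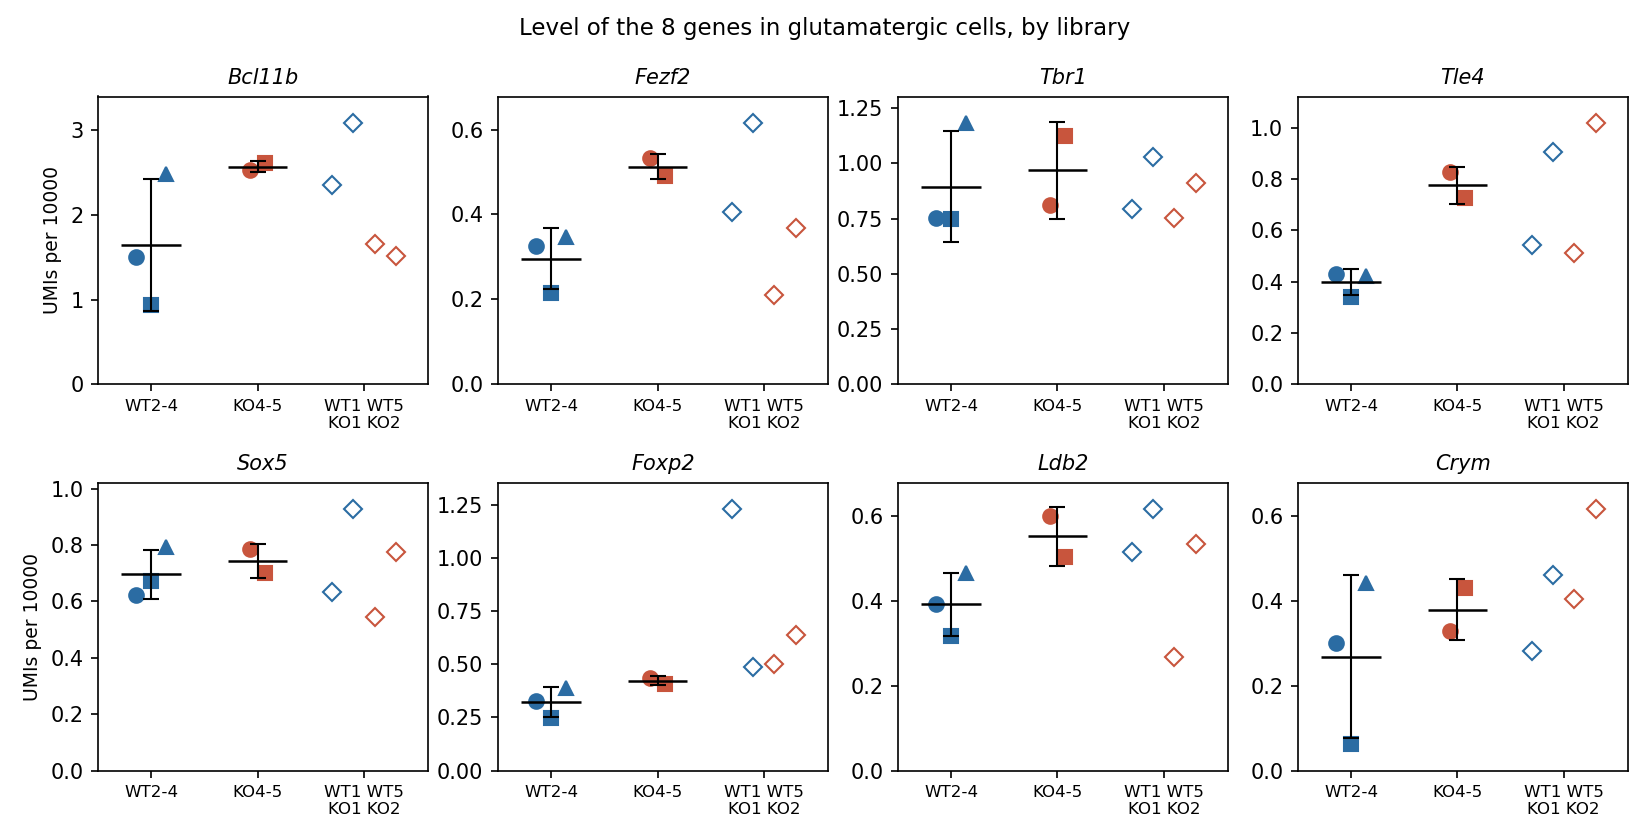
UMIs per 10000 of each of the 8 genes in glutamatergic cells of WT2, WT3 and WT4 (blue circle, square and triangle) and of KO4 and KO5 (red circle and square), with mean and SD, and of the libraries labelled WT1, WT5, KO1 and KO2 (open diamonds, from left to right in that order). Tle4 lies at 0.725 or above in both KO libraries and at 0.429 or below in WT2, WT3 and WT4.

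Bcl11b encodes a zinc finger factor needed for the corticospinal tract (minus strand of chr12:107910403-108003602 in GRCm38). It stood at 1.51, 0.940 and 2.48 UMIs per 10000 in WT, and at 2.53 and 2.61 in KO. WT4 nearly reached the KO libraries, and the 3 WT libraries differed among themselves by more than WT4 differed from KO. The log2 difference was 0.71 ± 0.32 (SE) with an adjusted p of 0.206 by limma. Without WT4 limma called it, with a difference of 1.05 and an adjusted p of 0.0280.

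Fezf2, the zinc finger factor that acts upstream of Bcl11b in layer V (minus strand of chr14:12342094-12348189), was at 0.326, 0.215 and 0.348 in WT and at 0.534 and 0.491 in KO. Both KO values lay above the 3 WT values. Limma gave a log2 difference of 0.64 ± 0.17 (SE) and an adjusted p of 0.120, and the call was made by DESeq2, with an adjusted p of 0.0359, and without WT4, with 0.0395.

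Tle4 (minus strand of chr19:14448150-14598051) is the corepressor of the group and marks corticothalamic neurons. Its level was 0.429, 0.340 and 0.424 UMIs per 10000 in WT, and 0.826 and 0.725 in KO. The KO libraries did not overlap with these WT libraries, but the library labelled WT5 had 0.903. The log2 difference was 0.82 ± 0.14 (SE), adjusted p = 0.0423 by limma, 0.0156 by edgeR with TMM scaling. The call was lost with no filter on low levels (0.0630), without WT2 (0.122), without KO4 (0.467), without KO5 (0.357) and among cells with fewer than 3000 UMIs (0.177). It was also lost in 6 of the libraries that share a number (WT2, WT4, WT5, KO2, KO4 and KO5), with WT1 and KO1 left out. With that number as a replicate block the difference was 0.54 ± 0.24 and the adjusted p by limma 0.622. Without the block the adjusted p was 0.898. Among cells with at least 100 Actb UMIs per 10000 the adjusted p was 0.509, and below that level 0.349. In either class limma called 0 genes in all. Below that level KO4 kept just 115 glutamatergic cells and KO5 just 22, while WT2 kept 87 at or above it. Classes of this size cannot decide the part of Actb in the higher Tle4 level, which was not tested.

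The RefSeq promoter table of GRCm38.p6 held 5 of the 8 genes, and the window before the first Tle4 start is printed because Tle4 carried the only call and because TCF4 binds E-boxes, CANNTG. This pattern reads the same on both strands, and its matches are in capitals in the 250 bases of chr19:14598184-14598433 on the minus strand.

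Tle4 upstream: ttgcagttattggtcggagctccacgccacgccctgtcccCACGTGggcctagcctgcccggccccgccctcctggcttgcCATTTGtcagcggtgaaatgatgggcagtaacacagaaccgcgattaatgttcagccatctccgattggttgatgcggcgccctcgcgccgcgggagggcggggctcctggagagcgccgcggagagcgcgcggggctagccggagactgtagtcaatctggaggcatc

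The Tle4 window held 2 such matches, the Tbr1 window 1, and the windows of Bcl11b, Fezf2, Sox5 and the second Tle4 start 0. These windows are not alike. Annotated exons of the gene covered 250 bases for Tbr1, 188 for Bcl11b, 94 for Fezf2 and 96 for the second Tle4 start. They covered 0 for the first Tle4 start and for Sox5, whose window lay inside the span of the gene. At least 1 match was present in 66.2% of 32851 windows of the same length in the table, so the letters alone are common. They are a description of the sequence and say nothing on binding.

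Tbr1 encodes the T-box factor of layer VI and subplate neurons (plus strand of chr2:61802930-61814114). It was measured at 0.754, 0.748 and 1.18 UMIs per 10000 in WT and at 0.813 and 1.12 in KO. The 2 groups overlapped fully, and limma gave a log2 difference of 0.12 ± 0.22 (SE) and an adjusted p of 0.746. Sox5, which encodes an SRY-box factor that controls the timing of corticofugal neuron production (minus strand of chr6:143828425-144781977), was at 0.623, 0.673 and 0.793 in WT and at 0.785 and 0.70 in KO. It overlapped as well, with a difference of 0.09 ± 0.14 and an adjusted p of 0.704.

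Foxp2, a forkhead factor of layer VI (plus strand of chr6:14901349-15441977), was at 0.328, 0.25 and 0.391 UMIs per 10000 in WT and at 0.438 and 0.409 in KO. KO5 exceeded WT4 by less than the WT libraries differed among themselves, and the log2 difference was 0.32 ± 0.16 (SE), adjusted p = 0.242 by limma. The direction turned among cells with fewer than 3000 UMIs, at -0.11, and over all kept cells, at -0.07.

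Ldb2 (minus strand of chr5:44472132-44799680) was at 0.394, 0.318 and 0.467 in WT and at 0.601 and 0.504 in KO, without overlap. Its log2 difference was 0.41 ± 0.16 (SE) with an adjusted p of 0.174 by limma. Crym (minus strand of chr7:120186380-120202111) had 0.30, 0.0635 and 0.442 in WT and 0.329 and 0.430 in KO. WT3 was far below all other libraries, and with a difference of 0.54 ± 0.44 and an adjusted p of 0.433 the groups overlapped.

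Across all genes tested, 9.37% were above every WT library in both KO libraries and 41.1% below, so the 5 of 8 genes above (Bcl11b, Fezf2, Tle4, Foxp2 and Ldb2) stood against a background that leant downwards. Under TMM scaling the median over all genes moved from -0.15 to -0.003 and the median of the 8 genes from 0.47 to 0.63. EdgeR with TMM called 1.47% of genes higher and DESeq2 3.0%, with 1 and 2 of the 8 genes among them. At an unadjusted p under 0.05 limma counted 3 of the 8, beside 2180 of all 8459 genes tested. Without WT4, limma called 3 of the 8 and 1144 genes in all. The differences of Bcl11b, Tbr1 and Sox5 were -0.07, -0.04 and -0.03 in those 6 libraries, with or without the replicate block. With that block (WT2 with KO2, WT4 with KO4, WT5 with KO5) limma called none of the 8, 1 of which had an unadjusted p under 0.05, and 1 gene in all, and without it none of the 8, 0 at an unadjusted p under 0.05, and 0 genes. Of the 8557 genes tested there, 672 had an unadjusted p under 0.05 by limma with the block and 198 without it. The summed level of the 8 genes was 4.66, 3.55 and 6.53 UMIs per 10000 in WT and 6.85 and 7.0 in KO, of which Bcl11b gave 32.3, 26.5 and 38.0% and 36.9 and 37.3%.

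Other cells that use some of these genes were read in the same glutamatergic cells. The summed level of 8 interneuron markers was 2.14, 0.748 and 2.63 UMIs per 10000 in WT and 5.08 and 5.52 in KO, and that of 11 striatal markers was 8.50, 11.5 and 11.2 in WT and 7.50 and 6.99 in KO, with none of either list at 0. Limma called 0 of 8 and 0 of 6 tested, DESeq2 1 and 0, and 4 and 3 had an unadjusted p under 0.05 by limma. So did 2180 of all 8459 genes tested. The interneuron sum was thus higher in both KO libraries and the striatal sum lower, and their part in the levels of the 8 genes was not tested.

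In each of the 5 libraries Bcl11b gave the most UMIs of the 8. Such an order compares 3′ tags, which do not scale with transcript length but do depend on how well each 3′ end is captured. In WT2 and WT3 the order was Bcl11b, Tbr1, Sox5, Tle4, Ldb2, Foxp2, Fezf2 and Crym, and in WT4 Ldb2 and Crym stood before Tle4. From Tle4 downwards, neighbours in the order of the WT means differed by less than the SD of either gene over the WT libraries. In KO4 Tle4 moved to the second place, just above Tbr1, and in KO5 to the third.

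The share of cells with a UMI depends on depth, and cells were therefore thinned to 1800 UMIs and gated again. Tle4 was then detected in 6.86, 5.69 and 6.51% of glutamatergic cells of the WT libraries (exact binomial 95% intervals of counting error 5.25 to 8.77%, 4.47 to 7.12% and 5.75 to 7.35%) and in 14.3 and 12.5% in KO (13.1 to 15.5% and 11.05 to 14.2%). The mean share was 6.35 ± 0.600% in WT and 13.4 ± 1.24% in KO (SD), with p = 0.1 in a 2-sided exact permutation test, the smallest that 3 against 2 libraries allow. Fezf2 had 4.55 ± 1.12 and 8.94 ± 0.437% (exact p = 0.1), Sox5 11.1 ± 0.566 and 12.7 ± 0.419% (exact p = 0.1) and Ldb2 7.01 ± 0.661 and 9.09 ± 1.37% (exact p = 0.1). Bcl11b, at 21.9 ± 7.85 and 36.4 ± 1.66%, and Foxp2, at 5.09 ± 0.917 and 7.0 ± 0.555%, were also higher in both KO libraries than in any WT library, each with an exact permutation p of 0.2. Tbr1, at 14.4 ± 4.24 and 15.7 ± 2.99% (exact p = 0.6), and Crym, at 3.84 ± 2.62 and 6.39 ± 1.02% (exact p = 0.3), overlapped. After Benjamini-Hochberg adjustment over the 8 genes these permutation p-values ran from 0.2 to 0.6. Non-overlapping shares that were higher in KO made up 11.1% of all genes tested and lower ones 36.3%, against 6 and 0 of the 8 genes. Without thinning 1 of the 8, Tle4, remained above every WT library, at 17.1 ± 1.91 against 12.7 ± 2.12%, while Tbr1 and Sox5 were lower on average in KO by 5.21 and 4.86 percentage points.

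Free RNA can give such UMIs too. In cells with at least 3 UMIs of vascular or microglial markers and no Neurod or Gad UMI, thinned alike, Tle4 was found in 13.3% of 15 cells of WT2, 0% of 10 of WT3, 15.4% of 39 of WT4, 14.3% of 21 of KO4 and 0% of 3 of KO5, at median depths before thinning of 4632, 3840, 4043, 2313 and 2272 UMIs. The exact binomial 95% intervals of the shares in WT2, WT4 and KO4 (1.66 to 40.5%, 5.86 to 30.5% and 3.05 to 36.3%) included the Tle4 share of glutamatergic cells of the same library. With so few cells these shares set no firm background, whether vascular cells themselves express Tle4 was not tested, and the part of free RNA in the Tle4 shares, and in the higher Tle4 level of KO, was not tested. Fezf2 had no UMI in these cells in WT2, WT3 or WT4, where 0 of 39 cells in WT4 allows a share of up to 7.69%, and was found in 9.52% of the 21 cells of KO4, close to its 9.25% in glutamatergic cells there. Of Bcl11b the shares were 13.3, 0 and 20.5% in WT and 14.3 and 33.3% in KO.

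Among cells with a UMI, the mean number of UMIs was lower in KO for Bcl11b (1.77 ± 0.465 in WT and 1.38 ± 0.0312 in KO, SD), Tbr1, Sox5 and Crym, without overlap between the libraries and without thinning. Cells of KO libraries are shallower, and a shallower cell gives fewer UMIs of a gene. The part of depth in these lower counts was not tested. How many of all genes had lower counts in this way was not examined either, so they are not shown to be particular to these genes. Over all 8 genes, a thinned glutamatergic cell had UMIs of 0.730, 0.576 and 0.918 of them on average in WT, and of 1.08 and 1.11 in KO. At least 3 of the 8 were seen in 3.19, 1.84 and 6.38% of cells in WT and in 7.43 and 8.46% in KO.

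The second question was whether the 8 genes mark glutamatergic rather than Gad cells, those with a Gad1 or Gad2 UMI and no Neurod UMI. WT2, WT3 and WT4 held 35, 40 and 487 Gad cells, and KO4 and KO5 held 39 and 30. In WT, Tbr1 was higher in glutamatergic cells, and Foxp2, Bcl11b and Tle4 were lower there than in Gad cells. No member passed in KO, where the gate separated the cell kinds poorly as described above. These contrasts within a genotype, and the test of their difference, were added after the genotypes had been seen to differ.

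Tbr1 had 0.754, 0.748 and 1.18 UMIs per 10000 in glutamatergic and 0.197, 0.258 and 0.371 in Gad cells of the WT libraries. In KO4 and KO5 it had 0.813 and 1.12 against 1.17 and 1.0. Glutamatergic cells stood well above Gad cells in all 3 WT libraries, whereas KO4 lay in the opposite direction and KO5 in the same direction by a smaller amount. The log2 contrast was 1.4 ± 0.24 (SE, adjusted p = 0.00155 by limma) in WT and -0.16 ± 0.44 (SD, n = 2) in KO, and the difference between genotypes was -1.56 ± 0.40 (SE) with an adjusted p of 0.0993.

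Foxp2 was at 1.62, 1.52 and 1.25 UMIs per 10000 in Gad cells of the WT libraries, above its 0.328, 0.25 and 0.391 in glutamatergic cells, and at 1.04 and 0.288 in Gad cells of KO4 and KO5. The last values rest on 9 and 2 UMIs. The WT contrast was -1.89 ± 0.23 (SE, adjusted p = 3.62e-05 by limma). Bcl11b followed with 2.49, 5.84 and 7.68 UMIs per 10000 in Gad cells of the WT libraries and 4.15 and 3.91 in those of KO4 and KO5, and a WT contrast of -1.60 ± 0.27 (adjusted p = 0.00752). Tle4 had 0.707, 1.14 and 0.734 in WT Gad cells and 0.777 and 0.614 in KO Gad cells, and a WT contrast of -0.92 ± 0.25 (adjusted p = 0.0450).

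**Figure D3:**
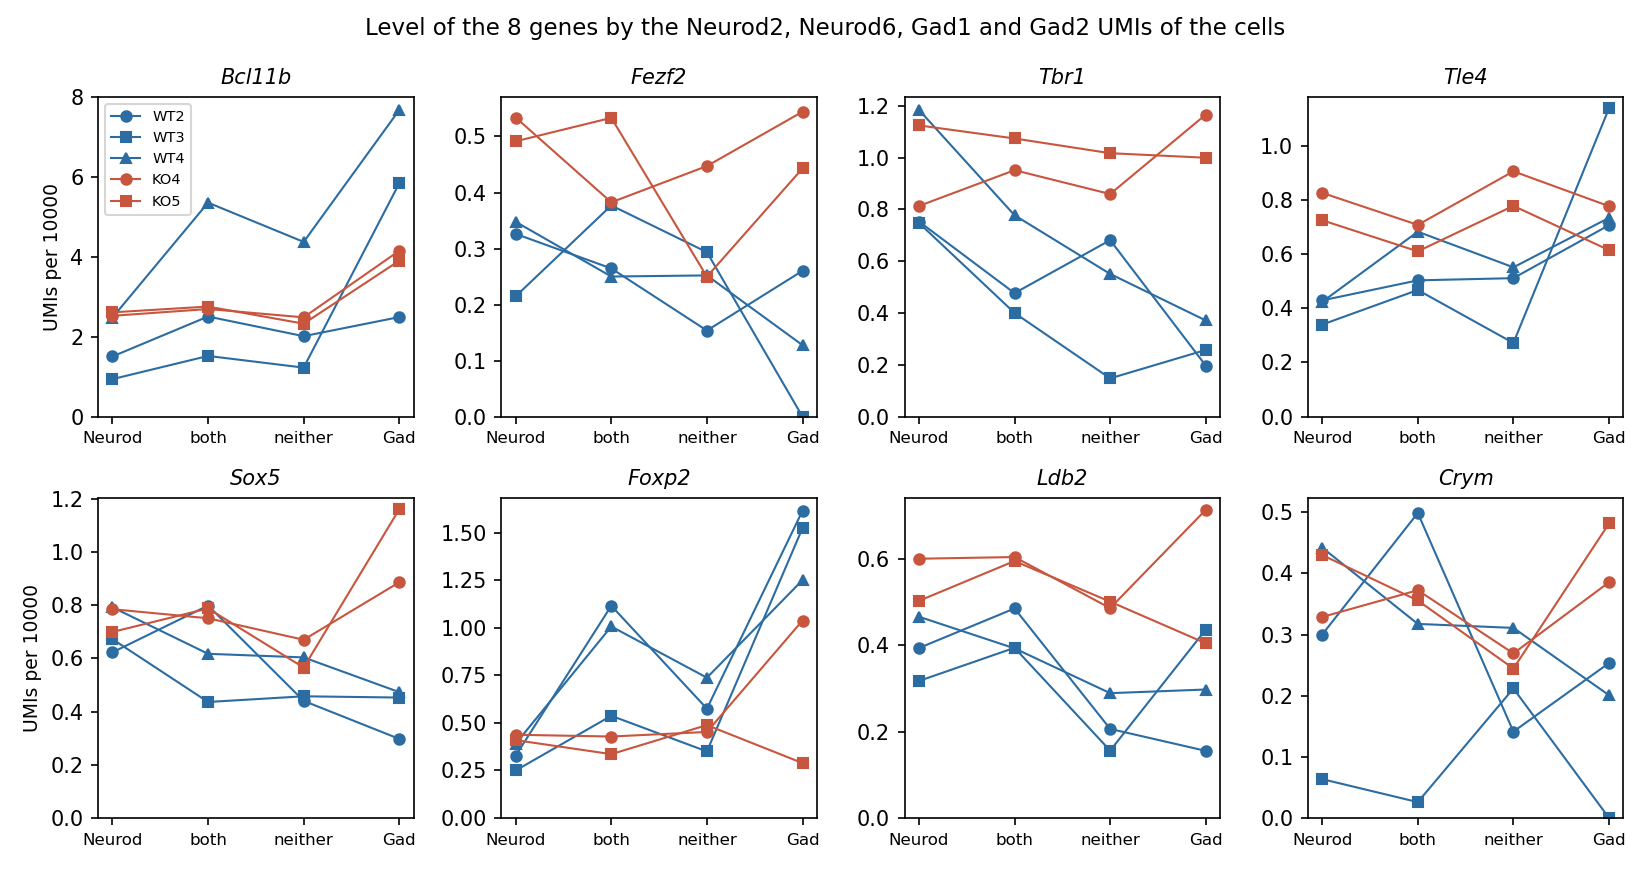
UMIs per 10000 of each gene in cells with a Neurod2 or Neurod6 UMI and no Gad UMI (Neurod), with both, with neither, and with a Gad1 or Gad2 UMI and no Neurod UMI (Gad), joined by a line for each of WT2, WT3 and WT4 (blue) and KO4 and KO5 (red). Tbr1 falls towards Gad cells in the 3 WT libraries, from 0.748 or more to 0.371 or less, and Bcl11b and Foxp2 rise.

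Fezf2 and Crym had no UMI in the 40 Gad cells of WT3, which allows up to 0.218 UMIs per 10000, near the 0.215 of Fezf2 and above the 0.0635 of Crym in glutamatergic cells of that library. In WT2 and WT4 the Fezf2 levels of Gad cells were 0.260 and 0.128. Sox5, Ldb2, Fezf2 and Crym did not pass in WT by limma.

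In WT 2.1% of 8884 genes were called higher and 1.81% lower in glutamatergic cells, and in KO 0.0473% of 8456 in either direction. Over the 5 libraries limma called 0.52% of 9609 genes and 0 of the 8, with 4 of the 8 and 982 of the 9609 at an unadjusted p under 0.05. EdgeR called 8.01% and 5 of the 8, with Tbr1, Fezf2 and Crym higher and Foxp2 and Tle4 lower. The difference between genotypes was called by limma for 0.749% of genes and 0 of the 8. An unadjusted p under 0.05 was seen for 5 of the 8, beside 1087 of all 9609 genes. Foxp2 had a difference of 1.55 over the 5 libraries. Without KO4 it was 2.28, where KO rests on the 30 Gad cells of KO5 alone. Of 19 other deep layer genes, 2 were higher and 4 lower in WT glutamatergic cells, among them Foxp1 (-1.84 ± 0.32), the forkhead paralog of Foxp2.

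The last question was whether the genes occur in the same cells. For each of the 28 pairs an odds ratio of co-detection was formed over 5 classes of UMIs per cell, so that depth did not by itself raise it. In WT4 26 of 28 ratios were above 1, with a median of 1.38, and in WT3 20, with a median of 1.27. In WT2 15 were above 1, with a median of 1.05, in KO4 22 (median 1.11), in KO5 17 (median 1.04), and in the library labelled WT5 15 (median 1.03). Co-detection was thus highest in the 2 deepest libraries, WT3 and WT4.

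The highest mean ratio in WT was that of Bcl11b with Crym, a pair of layer V markers, at 2.14, 1.74 and 1.62 in WT and 1.14 and 1.1 in KO. Fezf2 with Tle4 had 2.25, 1.27 and 1.67 in WT and 1.2 and 1.09 in KO, Bcl11b with Foxp2 1.46, 1.51 and 1.97 against 1.03 and 1.21, and Sox5 with Foxp2 1.52, 1.51 and 1.43 against 1.14 and 1.03. Bcl11b with Tle4 (means 1.47 and 1.04) and Tbr1 with Foxp2 (1.2 and 0.929) were lower in KO as well. These 6 of 28 pairs were lower in both KO libraries than in any WT library and 0 were higher, the smallest exact permutation p being 0.1, the lowest possible. After Benjamini-Hochberg adjustment over the 28 pairs the smallest permutation p was 0.70. This one-sided count did not hold in every setting. Among cells under 100 Actb UMIs per 10000, 3 pairs were lower and 4 higher, and among cells at or above it 4 lower and 3 higher. Without WT4, 7 were lower and 5 higher. Cells under 100 numbered only 115 in KO4 and 22 in KO5, and cells at or above it 87 in WT2, so ratios in these classes are imprecise. Of 39905 pairs of a member with another gene, 10.8% were lower and 10.6% higher in this sense.

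**Figure D4:**
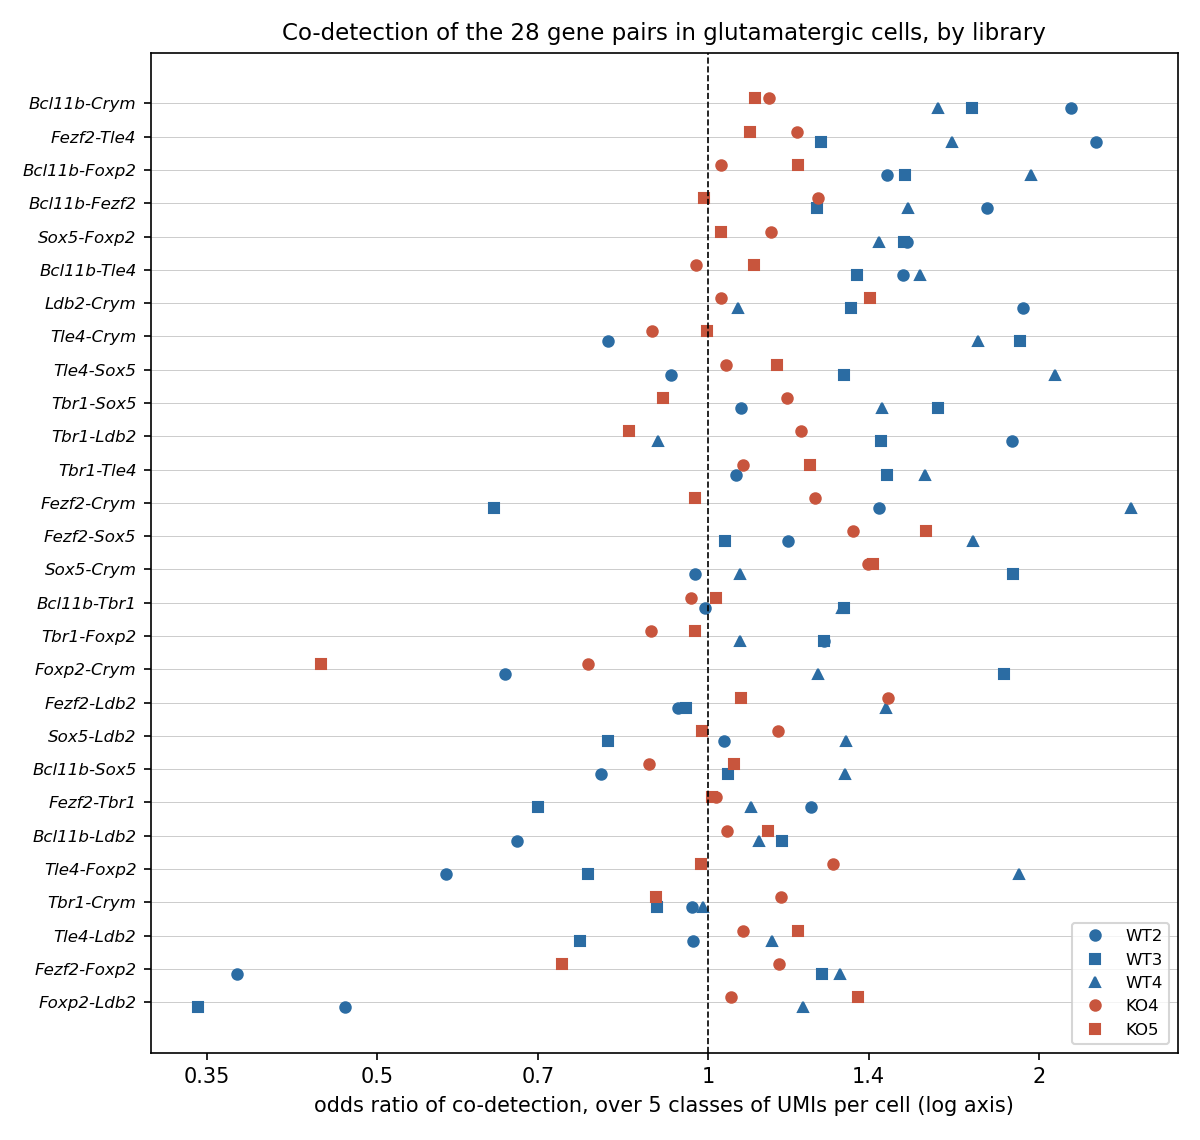
Odds ratio of co-detection (log axis, dashed line at 1) for each of the 28 gene pairs in glutamatergic cells, ordered by the WT mean, for WT2, WT3 and WT4 (blue) and KO4 and KO5 (red). Ratios run from 0.343 to 2.43 in WT and from 0.444 to 1.58 in KO.

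Some pairs had ratios under 1 in part of the libraries. Foxp2 with Ldb2 had 0.468 and 0.343 in WT2 and WT3 but 1.22 in WT4, 1.05 in KO4 and 1.37 in KO5, so the WT libraries did not share a direction. Between Fezf2 and Tbr1, known to oppose each other, the ratios were 1.24, 0.70 and 1.09 in WT and 1.02 and 1.01 in KO, on both sides of 1. Cells with both genes of a pair numbered 3 to 52 in WT2, 2 to 84 in WT3, 71 to 762 in WT4, 21 to 282 in KO4 and 8 to 195 in KO5, so the ratios of WT2 and WT3 rest on the fewest cells.

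The members resembled no other gene closely across single WT cells. By the mean over WT2, WT3 and WT4 of Pearson's r across glutamatergic cells after regression on depth, among 6209 genes, Bcl11b was most like Islr2 (r = 0.205), Meg3, Nnat, Celf4 and Xpr1, and Islr2, Meg3, Cadm1 and Nrp1 were among the 5 genes most like Crym. Fezf2 came next to Cadm1 (0.136), with Opcml, Rprm and Islr2 also among its 5, and Tbr1 to Cdh4 (0.127), Igfbpl1, Sstr2, Pcp4 and Fam84a. Ldb2 was most like the upper layer gene Mef2c (0.138), then Stmn2, Tmsb10, Gucy1a3 and Runx1t1, and Foxp2 most like Rnd2 (0.13), Eomes, Bcl11b, Tshz1 and Meis2. Sox5 came next to Cdh4 (0.111), Nfib, Sybu, Meis2 and B3gat1, and Tle4 to Bcl11b (0.0836), Vcan, Fezf2, Adgrb3 and Spock1. These values are low, as they are for sparse counts, and cells of a library share its preparation.

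The lists of related genes held no call by limma between genotypes in glutamatergic cells. By limma 0 of 9 paralogs, 0 of 19 other deep layer genes, 0 of 19 upper layer and callosal genes and 0 of 12 upstream regulators passed. An unadjusted p under 0.05 was seen for 2, 7, 7 and 6 of them, beside 2180 of all 8459 genes tested. EdgeR with TMM called none of them either, and DESeq2 called 0, 3, 3 and 1. Neurod2 and Neurod6, among the 12 upstream regulators, also chose the cells, so their levels are not free of the gate. The median log2 difference was 0.29 over the other deep layer genes, -0.11 over the upper layer genes, -0.34 over the upstream regulators and -0.02 over the paralogs, beside 0.47 for the 8 genes and -0.15 for all genes tested. Hs3st4, a heparan sulfate sulfotransferase of layer VI (1.26, adjusted p = 0.0708), and Nts (1.0, 0.205) had the largest differences of the deep layer list, and Unc5d (-1.17, 0.101) and Cux2 (0.83, 0.141) those of the upper layer list, none of them past the limma test. Of the erythroid list 4 of 4 genes tested were higher in KO, and of 5 genes that had marked clusters rich in KO cells in earlier work on these data, 4 were higher, which is no independent evidence of their direction.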

How the data were processed

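Dissociated neocortical cells were sequenced as 9 libraries (Chromium 3′ v2). The authors deposited whole UMI counts per gene and cell for WT4, WT5, KO4 and KO5, and the natural log of 1 plus UMIs per 10000 for WT1, WT2, WT3, KO1 and KO2, from which whole UMIs were recovered for 100% of values within 1e-06. Per the study's methods reads were aligned to mm10 with Cell Ranger, and the submitters' processing notes name Cell Ranger 2.1.0, Seurat 2.3.4 and R 3.6.0. Deposited libraries held 348105 to 29767293 UMIs in 120 to 6208 cells.

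Cells with 1000 to 5000 genes, 1800 to 10000 UMIs, under 6% mitochondrial UMIs and at most 1% haemoglobin UMIs were kept. The haemoglobin filter left out 13.9% of cells in KO4, 40.4% in KO5 and 0.42 to 1.34% in WT2 to WT4. No doublet caller was run, and leaving out the 5% of cells with most UMIs was an alternative. The libraries WT1, KO1 and KO2 (64, 240 and 64 glutamatergic cells) and WT5 entered no main comparison. The study's methods leave out samples with few cells, and a WT animal, not named there, with lower Tcf4 expression than the KO. WT5, with less Tcf4 than KO4 and KO5 (7.24 against 9.39 and 7.53 UMIs per 10000), did enter the settings with 6 and with 9 libraries.

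Levels were tested as log2(mean UMIs per 10000 + 0.1) with limma 3.58.1 (trend, robust), for genes of mean 0.1 or more in at least 2 libraries, with Benjamini-Hochberg adjustment over all genes and a threshold of 0.05. A fold on this scale understates changes of low genes. Contrasts of kinds of cell had library as a block. edgeR 4.0.16 (quasi-likelihood, TMM or RLE) and DESeq2 1.42.0 were alternatives. Shares and log2 odds ratios (Mantel-Haenszel over 5 depth classes) were compared by 2-sided exact permutation of libraries. Only where such a ratio had a numerator or denominator of 0 was 0.5 added, to the table pooled over the classes. A ratio formed that way is not adjusted for depth. Intervals and limits cover counting error only, 3 counts for a count of 0. The study's methods treat samples as single mice, whereas the labels name no animal, and p-values measure the spread between libraries. Fits and odds ratios were tested on simulated data. R 4.3.3, Python 3.11.15, numpy 2.4.6, scipy 1.17.1 and pandas 2.3.3 were used.

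All 8 genes are named, with up to 3 called genes per direction and at most 2 uncalled ones of each list, and the 5 genes most alike to each. Some planned results, and some of those genes, are not reported here. Members and lists were chosen with earlier results of these data known. The splits by Actb, the fits within a genotype and the genotype test of the Gad contrast were added after seeing the data. Libraries that share a number deviated together over 1161 genes (r = 0.653 for WT2 and KO2, 0.378 for WT4 and KO4, 0.502 for WT5 and KO5), with WT1 and KO1 not examined. Unmatched pairs ran from -0.624 (WT2 and KO4) to 0.336 (WT5 and KO4), so KO4 was almost as close to WT5 as to WT4. The numbers were taken to pair the libraries, as a pattern of the data and not of the labels.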

Additional observations from a re-analysis of the deposited data

Results flagged for a closer look

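Foxp2 stood at 1.23 UMIs per 10000 in the glutamatergic cells of the library labelled WT1, far above the other WT libraries, and rests on 20 UMIs in 64 cells. It was found among 16 groups of 4 or 5 libraries examined for a value far from the rest, of which chance marks about 1 in 20. The library labelled WT5, which entered no main comparison, had a summed level of the 8 genes of 8.13 UMIs per 10000, above WT2, WT3 and WT4 and also above KO4 and KO5.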

How the results depend on the processing

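The count of called genes between genotypes (1 of the 8, 95 in all) was 0 of the 8 with no filter, with all 9 libraries as labelled, in cells under 3000 UMIs, over all kept cells and in cells under or with at least 100 Actb UMIs, and 2 with DESeq2. Genes called in all were 295 with DESeq2, 164 with TMM scaling, 36 under 3000 UMIs, and 0 with all 9 libraries and in either Actb class. With the replicate block 0 of the 8 and 1 gene were called, and in the same 6 libraries without the block 0 and 0. Leaving out 1 library gave 0 to 3 of the 8 and 8 to 1144 genes. Bcl11b was -0.066 with the block or without it in those 6 libraries, Tbr1 -0.043 and Sox5 -0.0324. Tbr1 ran from -0.0954 (without KO5) to 0.327 (without KO4) when 1 library was left out, and was -0.088 under 3000 UMIs and -0.137 under 100 Actb, Sox5 -0.0476 with all 9, and Foxp2 -0.109 under 3000 UMIs and -0.0727 over all kept cells.

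The Gad contrast (0 of the 8, 50 genes) gave 1 of the 8 with a pseudocount of 1 and after thinning, 5 and 770 with edgeR, 4 and 348 in WT alone, 5 genes with no filter, 4 genes in KO alone, and 0 to 2 and 8 to 109 without 1 library. In KO alone Tbr1 was -0.158, Tle4 0.143, Sox5 -0.407 and Crym -0.157. The genotype difference of the Gad contrast (0 and 72) gave 0 to 1 and 10 to 178.

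Shares (6 of 8 higher) gave 1 without thinning, where Tbr1, Sox5 and Ldb2 differed by -5.21, -4.86 and -0.488 points, and 0 with all 9 libraries, where Sox5, Foxp2 and Ldb2 differed by -1.69, -1.42 and -0.289. Tbr1 ran from -0.783 (without KO5) to 3.78 (without WT4). Pairs (6 lower, 0 higher) were 3 lower and 4 higher under 100 Actb, where the median log2 difference turned from -0.23 to 0.17, 4 and 3 at 100 Actb or more, 7 and 1 after thinning, and 7 to 13 lower and 0 to 5 higher without 1 library. Log2 ratios turned under 100 Actb for Bcl11b with Tle4 (0.277), Fezf2 with Tle4 (0.273) and Tbr1 with Foxp2 (0.00738), at 100 Actb or more for Bcl11b, Tbr1 and Sox5 with Foxp2 (0.0222, 0.261 and 0.364), and after thinning for Tbr1 with Foxp2 (0.29). KO4 and KO5 held only 115 and 22 glutamatergic cells under 100 Actb, and WT2 held 87 at 100 or more. The causes were not tested. For single genes and pairs 385 values kept direction and side, 20 gained and 11 lost a call, and 30 reversed. Gad cells numbered 30 to 40 in 4 of the 5 libraries, and KO5 held 2 Foxp2 UMIs in them.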
